A study of Mus musculus with 10 samples.

Results

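A list of 10 genes whose products are used to sort or stain subsets of mammary epithelial cells was followed in RNA-seq libraries of luminal and basal cells. The genes are Epcam, Cd24a, Kit, Kitl, Cd14, Prom1, Ly6a, Aldh1a3, Cd44 and Thy1. They were taken as a list of names, with no threshold on measured values, and all 10 of the 10 were found among the 24594 genes of the count table and passed the filter on low counts that left 14609 genes. Most of them encode proteins of the cell surface, but Aldh1a3 encodes an enzyme inside the cell and Kitl a ligand.

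The cells came from the mammary glands of virgin wild-type C57BL/6J mice, for which no treatment is given. Luminal cells and basal cells were sorted on the surface proteins EpCAM and CD49f, and 5 libraries of each were sequenced. The methods describe adult mice of a few months of age, and the number of animals behind each library is not given in the labels. The methods also describe a lineage stain for CD45 (leukocytes), CD31 (endothelium) and TER-119 (red cells), made with antibodies, but the labels of these libraries name only EpCAM and CD49f. The luminal sort did not divide progenitor from mature hormone-sensing cells. Library totals ranged from 13203146 to 17565471 counts in luminal and from 13676558 to 17998165 counts in basal libraries. Libraries were assigned by their cell type label, because all 10 sample titles name the other cell type, whereas their source names, and the letter B or L in their descriptions, match that label. The keratins Krt8, Krt18 and Krt19 of luminal cells were all higher in the libraries labelled luminal, and Krt5, Krt14, Acta2 and Trp63 of basal cells were all higher in those labelled basal. Luminal libraries held a mean of 9.84 CPM of Krt5 and basal libraries 1721 CPM, where CPM is the usual count scaled for depth, here with the library total adjusted by the trimmed mean of M values (TMM).

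The mammary duct has an inner layer of luminal cells, some of which sense hormones and some of which are progenitors that can form colonies, and an outer layer of contractile basal cells, among which cells able to regenerate a gland have been found. Because few markers are unique to one subset, combinations of surface proteins are used. EpCAM and CD24 are high on luminal cells, KIT, CD14 and ALDH activity mark luminal progenitors, and Sca-1 (the product of Ly6a) and CD133 (the product of Prom1) have been used for hormone-sensing luminal cells. CD44 and THY1 are better known from basal, stromal and blood cells.

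Epcam encodes a protein used for the sort, so its direction was set by the sort and it is left out of the counts of calls that follow. Of the other 9 genes, 6 were higher in luminal cells (Cd24a, Kit, Cd14, Prom1, Ly6a and Aldh1a3) and 3 were higher in basal cells (Kitl, Cd44 and Thy1), by the quasi-likelihood test of edgeR (Benjamini-Hochberg adjusted over all 14609 genes, threshold 0.05). Sharing this outcome says little by itself, as 64.8% of all genes tested were called, 33.6% as higher in luminal and 31.2% as higher in basal cells. In 8 of these 9 the values of the 5 luminal and the 5 basal libraries did not overlap, against 50.1% of all genes tested, and Cd44 was the exception. All 6 of the genes higher in luminal cells stood clear in this way (24.7% of all genes did in that direction), as did Kitl and Thy1 (25.3%). The difference was at least 16-fold for 5 of the 9 (Kit, Cd14, Prom1, Ly6a and Aldh1a3, all higher in luminal cells), as for 6.89% of all genes tested in either direction and 3.2% in that of luminal cells. The median log2 fold change of luminal against basal cells was 4.74 over the 9 genes (4.08 with Epcam) and 0.05 over all genes tested. For Cd14 only 0.712% of all genes tested had a larger log2 fold change in either direction, and for Aldh1a3, Kit and Prom1 the shares were 0.76%, 1.47% and 2.51%. For Cd44 the share was 55.8%.

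**Figure D1:**
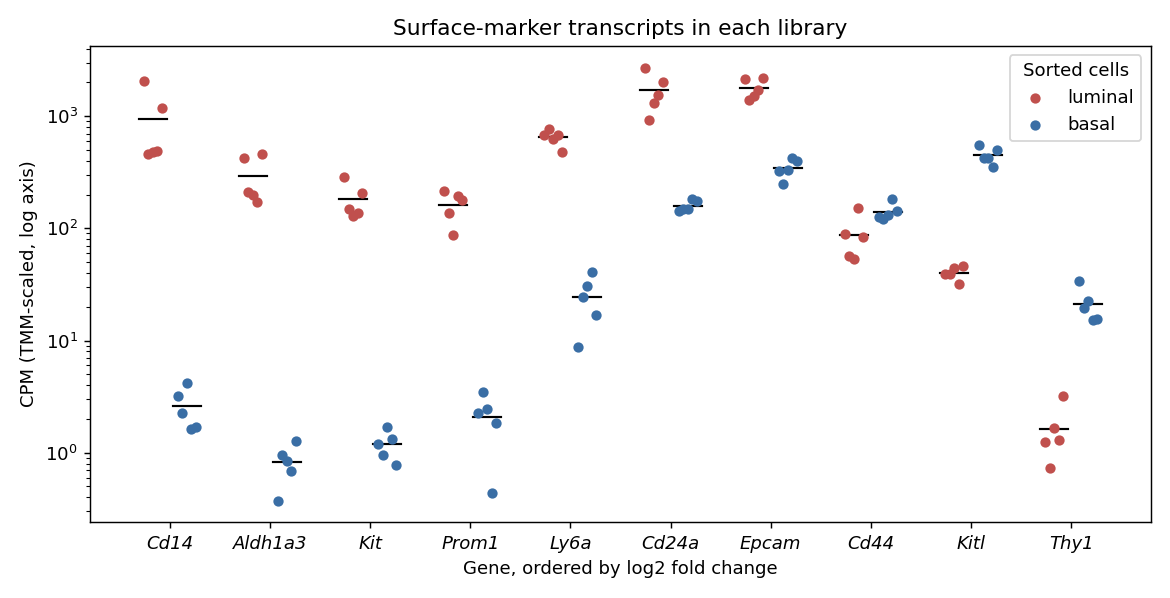
Level of each of the 10 transcripts in each library, as TMM-scaled CPM on a log axis, with luminal libraries in red, basal libraries in blue and a black line at the mean of 5. The 2 colours are apart for 9 genes and overlap for Cd44, where the highest luminal library, at 153 CPM, lies among the basal ones.

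Epcam and Itga6 encode the proteins by which the cells were sorted, so their levels are given as a description and support nothing here. EpCAM is an adhesion molecule of epithelial cells, encoded by Epcam (Entrez Gene 17075, chr17:87635979-87651127, GRCm38). Luminal libraries 1 to 5 held 2161, 1393, 1500, 1708 and 2174 CPM of Epcam, and basal libraries 1 to 5 held 324.9, 246.5, 331, 419 and 398 CPM. Every luminal library was above every basal library, but Epcam was far from absent in basal cells, whose mean was 19.2% of the luminal mean. The log2 fold change was 2.38. The other sort marker, CD49f, is the integrin α6 subunit encoded by Itga6 on chr2. Itga6 lay between 118.6 and 174.6 CPM in luminal and between 254.3 and 463.9 CPM in basal libraries, with a log2 fold change of -1.36. Both transcripts thus differed in the direction of the sort. Of the 51-base stretches of the longest Itga6 transcript, 6.48% also occur in another annotated gene, and for Epcam none does.

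The promoter of Epcam is shown because the gene carries the sort itself. It runs from 250 bases before to 50 bases after the start site on the plus strand (chr17:87635729-87636028, RefSeq, GRCm38.p6), 5′ to 3′, with matches to the motifs searched in capitals.
Epcam: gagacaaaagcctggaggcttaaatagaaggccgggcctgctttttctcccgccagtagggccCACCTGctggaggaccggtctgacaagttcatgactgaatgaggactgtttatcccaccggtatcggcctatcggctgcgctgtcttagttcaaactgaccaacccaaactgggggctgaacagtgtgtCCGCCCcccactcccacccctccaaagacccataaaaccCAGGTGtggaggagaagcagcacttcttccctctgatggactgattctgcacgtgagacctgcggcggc
Both strands were searched for CACCTG, which is the E2-box that ZEB and SNAI repressors bind, for AGATAA, which is a site of the GATA factors, for CCGGAA, which is a site of ETS factors, for TATAAA, which is the core of the TATA box, and for GGGCGG, which is the GC-box. The Epcam promoter holds the E2-box at -187 and -19 and the GC-box at -58, counted from the start site (position 1) to the first printed base of the match. Among all 32851 promoters of this length 20.2% hold an E2-box, 11.2% the GATA, 14.9% the ETS and 13.6% the TATA letters and 35.7% a GC-box. A match of letters is a description and not evidence of binding.

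Cd24a encodes a small, heavily glycosylated surface protein anchored by lipid (12484, chr10:43579169-43584265), which was not used for this sort. Its level was 2708, 922, 1305, 1547 and 2035 CPM in luminal libraries 1 to 5 and 142.6, 148, 147.9, 183 and 176 CPM in basal libraries 1 to 5. The groups did not overlap, and the luminal libraries spread much more widely (the highest was 2.94 times the lowest) than the basal ones (1.285 times). Luminal cells were higher by a log2 fold change of 3.42 ± 0.27 (SE, n = 5 against 5; edgeR adjusted p = 6.05e-08). Basal cells kept 9.37% of the luminal mean, a share between those of Epcam and of Kit. Of its 51-base stretches 3.79% also occur in Gm6212, so a small part of its counts could belong to that copy.

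The transcripts of the receptor tyrosine kinase KIT and of its ligand differed in opposite directions. Kit (16590, chr5:75574987-75656722) stood at 288, 148, 129, 137.5 and 208 CPM in luminal libraries 1 to 5. In basal libraries 1 to 5 it stood at 1.185, 0.955, 1.70, 1.31 and 0.779 CPM. The basal mean was 0.652% of the luminal mean, and the log2 fold change was 7.27 ± 0.31 (SE, n = 5 against 5; edgeR adjusted p = 2.28e-10). In bulk samples, fewer cells of a type and less RNA per cell cannot be told apart, so a few luminal cells in the basal sort and a low level in basal cells would give the same value. For comparison, of 5 other markers of luminal progenitors, basal libraries held 0.12% of the luminal mean of Wfdc18, 0.179% of that of Elf5, 0.375% of that of Csn3 and 1.08% of that of Ehf, while Lcn2 was not higher in luminal cells.

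Kitl (17311, chr10:100015615-100100416), which encodes stem cell factor, the only known ligand of KIT, showed the reverse. Luminal libraries 1 to 5 held 39.5, 39.45, 44.7, 32.1 and 45.9 CPM, and basal libraries 1 to 5 held 547.9, 427, 421, 349 and 498.5 CPM. No luminal library came near a basal one, and Kitl had the narrowest luminal spread of the 10 genes (the highest 1.429 times the lowest). The log2 fold change was -3.48 ± 0.17 (SE, n = 5 against 5; edgeR adjusted p = 6.27e-10), and luminal cells held 8.99% of the basal mean. In the 5 pairs of libraries with the same number, the log2 ratio of luminal to basal ran from 6.16 to 7.89 for Kit and from -3.79 to -3.23 for Kitl.

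Because receptor and ligand differed in opposite directions, both promoters are shown, each from 250 bases before to 50 after the start site on the plus strand, 5′ to 3′, with the same motifs in capitals (Kit chr5:75574737-75575036, Kitl chr10:100015571-100015870, RefSeq, GRCm38.p6).
Kit: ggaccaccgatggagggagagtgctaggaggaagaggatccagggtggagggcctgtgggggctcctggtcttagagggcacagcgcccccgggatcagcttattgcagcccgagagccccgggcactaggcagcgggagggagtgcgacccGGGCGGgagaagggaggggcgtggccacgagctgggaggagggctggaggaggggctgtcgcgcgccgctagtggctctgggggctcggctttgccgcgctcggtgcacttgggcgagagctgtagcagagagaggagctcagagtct
Kitl: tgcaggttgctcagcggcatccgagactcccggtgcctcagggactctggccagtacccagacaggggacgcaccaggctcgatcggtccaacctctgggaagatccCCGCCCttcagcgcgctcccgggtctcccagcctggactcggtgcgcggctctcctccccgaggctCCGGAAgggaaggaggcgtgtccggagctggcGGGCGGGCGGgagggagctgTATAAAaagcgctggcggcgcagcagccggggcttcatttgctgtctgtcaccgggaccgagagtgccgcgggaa
The Kit promoter holds a single match, a GC-box at -98. The Kitl promoter holds the TATA letters at -25, the ETS letters at -77 and a GC-box at -143, -45 and -41, the last 2 of which overlap each other. GC content was 69.0% for Kit and 68.7% for Kitl. Promoters of Prom1 and Cd44 were also matched: the first of the 2 for Prom1 holds the E2-box at -222 and a GC-box at -62, and that of Cd44 the GATA letters at -233 and a GC-box at position 4.

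Downstream of KIT, 13 genes of adaptors, kinases, phosphatases and inhibitors were tested. Luminal cells held more of 4 of them, basal cells more of 8, and 1 (Socs6) was not called, with a median log2 fold change of -0.68. The Src-family kinases were divided: Lyn was higher in luminal cells (40.9 against 6.565 CPM, log2 fold change 2.64 ± 0.20, adjusted p = 4.86e-08 in edgeR) and Fyn in basal cells (3.85 against 104 CPM, log2 fold change -4.73 ± 0.27, adjusted p = 2.85e-09 in edgeR). The 4 of 13 higher in luminal cells stand beside 33.6% of all genes tested, and the 8 of 13 higher in basal cells beside 31.2%.

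Cd14 and Aldh1a3 had the largest differences of the 10 genes, nearly equal in size, and which came first changed with the setting (8.32 for Cd14 and 8.39 for Aldh1a3 on the log2 scale with limma voom). Cd14 encodes a co-receptor that hands bacterial lipopolysaccharide (LPS) to Toll-like receptor 4, is best known from monocytes, and lies at chr18:36725064-36726815 (Entrez Gene 12475). In luminal libraries 1 to 5 it reached 2061, 461, 482, 488 and 1184 CPM. In basal libraries 1 to 5 it reached 3.18, 2.25, 4.18, 1.63 and 1.68 CPM. Libraries 1 and 5 stood above the other luminal libraries, which lay close together, and the highest was 4.47 times the lowest. Even the lowest luminal library was far above every basal one, and the log2 fold change was 8.51 ± 0.565 (SE, n = 5 against 5; edgeR adjusted p = 1.21e-08). Leukocyte markers went both ways, with 2 of the 4 tested higher in each sort. Lyz2 and Cd52 were higher in luminal cells, at means of 1.31 and 4.65 CPM against 0.395 and 1.12 CPM (edgeR adjusted p = 0.0139 and 0.00664). Without basal library 4, which held 3.06 CPM of Cd52, its log2 fold change was 2.83 in place of 2.03. Cd68 and Csf1r were higher in basal cells (edgeR adjusted p = 4.1e-06 and 0.0114), at means of 8.28 and 9.32 CPM in luminal and 29.7 and 14.8 CPM in basal libraries, and Ptprc (CD45) did not pass 6 counts in any library. A stain for CD45 would remove leukocytes if it was applied to these libraries, and the part of such cells in the level of Cd14 was not tested.

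Among 6 genes that work with CD14 in LPS sensing, 3 were higher in luminal cells, 2 in basal cells and 1 (Myd88) was not called, with a median log2 fold change of 0.53 (over all genes tested, 33.6% and 31.2% were called in these directions). The LPS-binding protein gene Lbp was higher in luminal cells (6.01 ± 1.38 against 1.11 ± 0.594 CPM, SD, n = 5; log2 fold change 2.44, edgeR adjusted p = 8.98e-05). Tlr2 was higher in basal cells (14.5 against 36.9 CPM, log2 fold change -1.35, edgeR adjusted p = 3.75e-05). The 2 parts of the LPS receptor itself, Tlr4 and Ly96, named after their values were seen, also favoured luminal cells, with log2 fold changes of 1.81 and 1.5 (edgeR adjusted p = 1.3e-06 and 0.00169), far less than Cd14.

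Aldh1a3 (56847, chr7:66390892-66427477) encodes an aldehyde dehydrogenase that makes retinoic acid and contributes to the ALDH activity by which progenitors are sorted. Its luminal levels were 421, 210.2, 197, 170.2 and 464 CPM and its basal levels 0.374, 0.955, 0.851, 0.688 and 1.26 CPM, in libraries 1 to 5. Luminal libraries 1 and 5 were again the highest, while no basal library passed 1.26 CPM. The log2 fold change was 8.45 ± 0.41 (SE, n = 5 against 5; edgeR adjusted p = 6.46e-10), and the basal mean was 0.282% of the luminal mean, close to the 0.276% of Cd14.

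Other genes of retinoic acid metabolism and reception differed in both directions. Of 13 listed, 9 were tested. Luminal cells held more of 4 and basal cells more of 2, 3 were not called (Aldh1a1, Cyp26b1 and Rarb), and the median log2 fold change was 0.18. These counts are read against 33.6% and 31.2% of all genes tested. The sister enzyme Aldh1a1 was low in both, at 1.79 ± 1.06 CPM in luminal and 2.06 ± 0.212 CPM in basal libraries (SD, n = 5), and Aldh1a2 and Aldh1a7 were too low to be tested, as were Crabp1 and Cyp26a1. Crabp2, which encodes a retinoic acid binding protein, was higher in luminal cells (log2 fold change 2.96, edgeR adjusted p = 1.9e-06).

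Prom1 (19126, chr5:43993621-44102047) encodes prominin-1, or CD133, a membrane protein of apical protrusions. It lay at 215, 137, 86.9, 193 and 178 CPM in luminal libraries 1 to 5 and at 2.245, 3.48, 2.48, 0.438 and 1.86 CPM in basal libraries 1 to 5. Libraries 1 and 4 were its highest luminal ones and library 3 its lowest, a different order from that of Cd14 and Aldh1a3. Basal library 4 held 7 counts and the groups were far apart. Prom1 had a log2 fold change of 6.28 ± 0.40 (SE, n = 5 against 5; edgeR adjusted p = 8.54e-09). The pairs of libraries ranged from 5.08 to 8.49 on the log2 scale, the top value being that of pair 4. Exons of Prom1 share 424 bases with Gm16401 on the other strand, whose reads could be counted with it if strand was not used.

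Ly6a (110454, chr15:74994877-74998031) encodes Sca-1, a lipid-anchored surface protein. Luminal libraries 1 to 5 held 678, 771, 621, 683 and 481 CPM, and basal libraries 1 to 5 held 8.73, 24.2, 30.6, 40.9 and 17.02 CPM. Here library 5 was the lowest luminal one, and the luminal libraries were close to each other (the highest 1.603 times the lowest) while the basal ones were not (4.683 times). For Ly6a the log2 fold change was 4.74 ± 0.35 (SE, n = 5 against 5; edgeR adjusted p = 3.74e-08). Basal libraries held from 1.35% to 6.32% of the luminal mean, a larger share than of Kit, Cd14 or Aldh1a3. Of the 51-base stretches of Ly6a, 9.72% also occur in Ly6c1, Ly6i, I830127L07Rik or Ly6c2, and how reads from these stretches were counted is not given. Ly6c1 and Ly6c2 lay at means of 33.0 and 5.35 CPM in luminal libraries, against 647 CPM of Ly6a.

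Close relatives of these surface proteins were all higher in luminal cells, 8 of 8, with a median log2 fold change of 4.79 and no change of sign under any scaling tried, where 33.6% of all genes tested were called in that direction. They include Cldn7, a claudin that binds EpCAM, Prom2, and the Ly6 genes Ly6c1, Ly6c2, Ly6d, Ly6e and Ly6k. The largest difference among them was that of Ly6d, at 1267 ± 419 CPM in luminal and 8.31 ± 11.3 CPM in basal libraries (SD, n = 5), with a log2 fold change of 7.25 ± 0.756 (SE; edgeR adjusted p = 1.22e-06). The basal mean of Ly6d rested on library 4, which held 28.4 CPM where the others held 2.05 to 5.80 CPM, and without it the log2 fold change was 8.59.

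**Figure D2:**
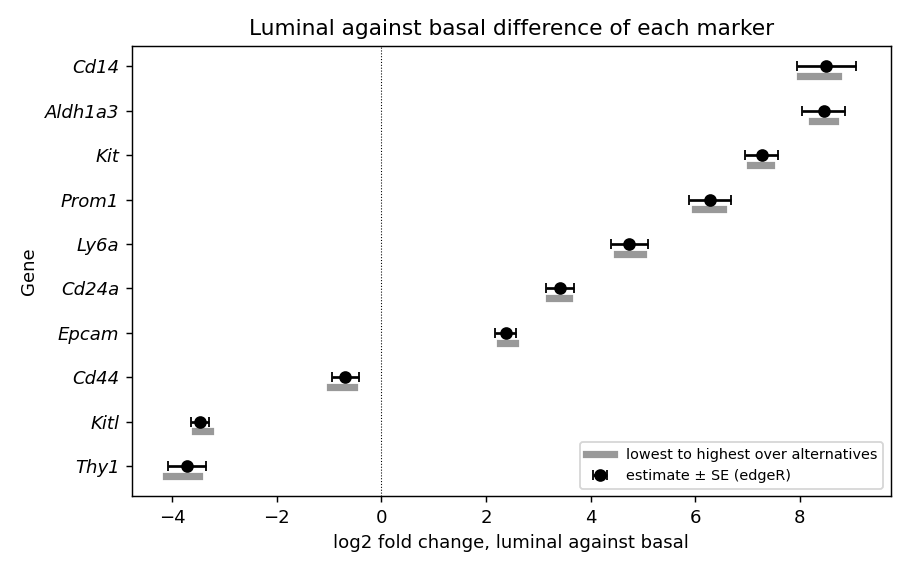
Log2 fold change of luminal against basal cells for each of the 10 genes, with the edgeR estimate and its standard error (points and bars) and, in grey, the lowest and highest value over the alternative settings, libraries left out included. The values run from 8.51 for Cd14 to -3.71 for Thy1, no gene changes sign, and Cd44 at -0.69 lies nearest to 0.

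Cd44 was the weakest of the 10. It encodes the main receptor for hyaluronan, a sugar polymer of the matrix, and lies at chr2:102811141-102901669 (12505). Luminal libraries 1 to 5 held 89.4, 57.2, 52.8, 153 and 83.5 CPM, and basal libraries 1 to 5 held 125, 121, 130.1, 182 and 142 CPM. Luminal library 4 was above basal libraries 1, 2, 3 and 5, so the groups overlapped, although the basal library was the higher one in 5 of 5 pairs. The log2 fold change was -0.69 ± 0.25 (SE, n = 5 against 5), with an adjusted p of 0.0259 in edgeR. The call did not hold under every setting: with upper-quartile factors the log2 fold change was -0.56 (adjusted p = 0.0649), with library totals alone -0.53 (0.0569), without luminal library 2 -0.55 (0.0719), without luminal library 3 -0.57 (0.0548) and without basal library 4 -0.59 (0.0614). Without luminal library 4 it was -0.99 (0.000364), and with the pair of libraries as a block -0.78 (0.00249). Cd44 counts are gene totals, so its splice variants are not resolved.

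The genes that make, cut or sense hyaluronan, or that tie CD44 to the cytoskeleton, were counted in the same way. Of 10 listed, 8 were tested, 6 were higher in basal and 1 in luminal cells and 1 (Has3) was not called, with a median log2 fold change of -1.57, beside 31.2% and 33.6% of all genes tested. Has2, the hyaluronan synthase with the largest difference, lay between 0.0763 and 1.05 CPM in luminal and between 34.1 and 44.0 CPM in basal libraries (log2 fold change -6.19 ± 0.37, edgeR adjusted p = 4.63e-09). Ezr, which encodes the linker ezrin, was the one higher in luminal cells (log2 fold change 2.17 ± 0.17, edgeR adjusted p = 6.72e-08).

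Thy1 (21838, chr9:44043384-44048579) encodes CD90, a small lipid-anchored surface protein of T cells, neurons and stromal cells. It lay at 1.25, 0.737, 1.66, 1.30 and 3.17 CPM in luminal libraries 1 to 5 and at 34.0, 19.4, 22.4, 15.1 and 15.6 CPM in basal libraries 1 to 5. Basal library 1 and luminal library 5 stood above the rest of their groups, and the groups did not overlap. Thy1 had a log2 fold change of -3.71 ± 0.365 (SE, n = 5 against 5; edgeR adjusted p = 6.53e-07), and the luminal mean was 7.62% of the basal mean. Luminal libraries held a smaller share of the basal mean of Krt5 (0.572%), Krt14 (0.487%) and Trp63 (0.398%).

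Markers of other cell types that carry THY1, CD44 or Sca-1 also differed between the sorts. The summed level of 5 endothelial markers ranged from 1.69 to 4.06 CPM in luminal and from 6.57 to 14.4 CPM in basal libraries, and that of 8 leukocyte markers from 20 to 27.8 CPM and from 36.6 to 54.1 CPM. The T cell marker Cd3e, the mast cell marker Fcer1a and the fat cell marker Adipoq had no count in any library. For 5 fibroblast and stromal markers the sums overlapped, from 17.8 to 108.3 CPM in luminal and from 33.1 to 46.9 CPM in basal libraries. Within that list Pdgfra (5.82 against 12.4 CPM) and Pdgfrb (0.6755 against 9.84 CPM) were higher in basal and Dcn (38.3 against 12.0 CPM) in luminal cells, each with an adjusted p under 0.05 in edgeR. Dcn overlapped between the groups and was highest in luminal library 1 (95.1 CPM, the other luminal libraries 11.6 to 39.5 CPM), without which its log2 fold change was 1.02 in place of 1.67 (edgeR adjusted p = 0.00611). Sums of 4 mast cell markers did not pass 1.21 CPM, those of 3 fat cell markers reached 1.595 CPM in luminal and 8.88 CPM in basal libraries, and those of 2 globins 16.8 and 0.188 CPM. Sums of 3 nerve and Schwann cell markers ranged from 56.7 to 157 CPM in luminal and from 285.8 to 329 CPM in basal libraries, mostly Sox10. The lineage stain that the methods describe would remove red cells, endothelium and leukocytes, but not fibroblasts or nerve cells, if it was used here. The part of all such cells in the values of Thy1, Cd44 and Ly6a was not tested.

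Luminal libraries 1 and 5 were the 2 highest luminal libraries for 5 of the 10 genes, Epcam, Cd24a, Kit, Cd14 and Aldh1a3, and for 19.0% of all genes tested. The same 2 libraries were highest for 4 of 5 other progenitor markers (Elf5, Csn3, Lcn2 and Ehf, but not Wfdc18), and among 6 markers of mature hormone-sensing cells for Pgr but not for Esr1, Prlr, Areg, Foxa1 or Cited1. Libraries 1 and 5 also led for genes of other lists, such as Itga6, Itgb1, Cdh1 and Lyn, though not for Cd9 or Fyn. This order was thus not particular to progenitor markers. Prom1 and Cd44 were highest in libraries 1 and 4, Ly6a in 2 and 4, and Kitl and Thy1 in 3 and 5. The highest luminal library exceeded the lowest by 4.47 times for Cd14, 4.30 times for Thy1, 2.94 times for Cd24a, 2.90 times for Cd44, 2.72 times for Aldh1a3, 2.47 times for Prom1 and 2.24 times for Kit, and by less for Ly6a, Epcam and Kitl. The share of progenitors among the sorted luminal cells was not measured, and its part in this spread was not tested. Lcn2 was the progenitor marker that was not higher in luminal cells, at 482 ± 187 CPM against 619 ± 195 CPM in basal cells (SD, n = 5; log2 fold change -0.36, edgeR adjusted p = 0.263).

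**Figure D3:**
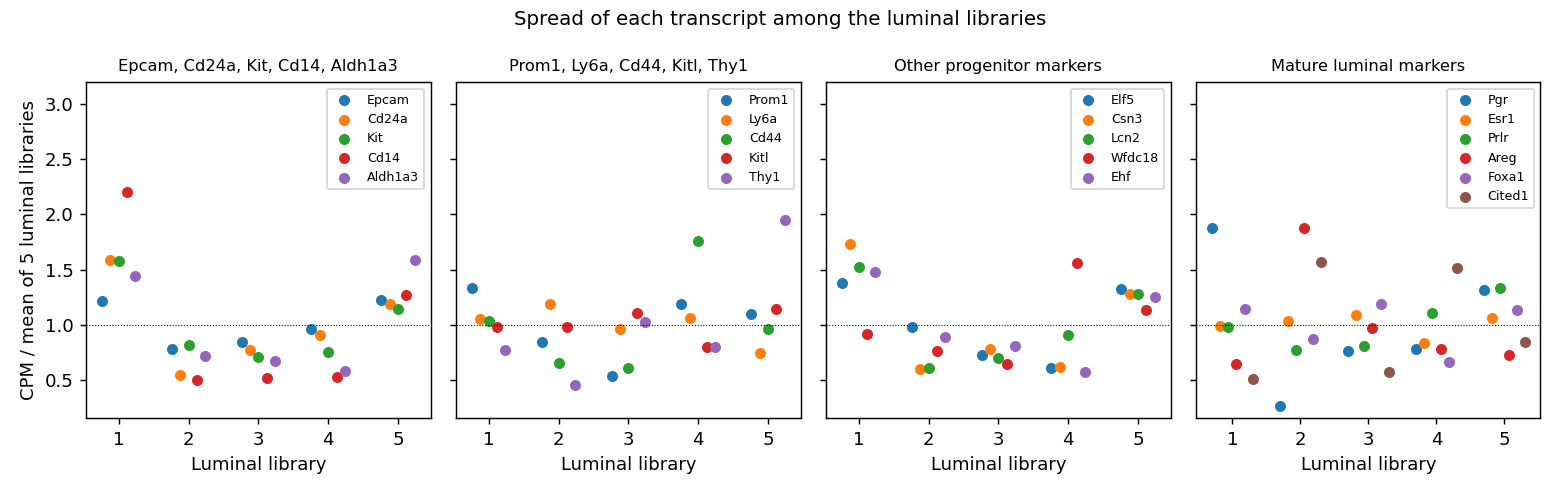
Level of each transcript in luminal libraries 1 to 5, as CPM divided by its mean over the 5, so that 1.0 is the mean. Epcam, Cd24a, Kit, Cd14 and Aldh1a3 lie above their mean in libraries 1 and 5 and below it in the others, Prom1, Ly6a, Cd44, Kitl and Thy1 follow other orders, and most progenitor markers but not most mature markers are high in libraries 1 and 5.

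To compare levels between genes, CPM was divided by the length of the longest annotated transcript in kilobases (kb). In luminal cells the order was Cd24a (938 ± 381 CPM per kb, SD, n = 5), Epcam (876 ± 179), Ly6a (677 ± 112), Cd14 (570 ± 426.5), Aldh1a3 (84.9 ± 40.2), Prom1 (39.6 ± 12.4), Kit (34.75 ± 12.8), Cd44 (15.5 ± 7.14), Kitl (7.145 ± 0.967) and Thy1 (0.935 ± 0.534). Neighbours in this order overlapped over libraries except at the steps from Cd14 to Aldh1a3, from Cd44 to Kitl and from Kitl to Thy1. In basal cells Epcam led (168.6 ± 33.4 CPM per kb), followed by Cd24a (87.85 ± 10.2), Kitl (79.5 ± 13.6), Ly6a (25.4 ± 12.9), Cd44 (24.98 ± 4.404) and Thy1 (12.3 ± 4.43), and then by Cd14 (1.57 ± 0.664), Prom1 (0.513 ± 0.27), Aldh1a3 (0.24 ± 0.095) and Kit (0.227 ± 0.0675). Cd24a and Kitl, Ly6a and Cd44, Prom1 and Aldh1a3, and Aldh1a3 and Kit overlapped there. So Epcam, a luminal sort marker, was the most abundant of the 10 transcripts per length in basal cells, ahead of Kitl and Thy1. With the union of all annotated exons as length, a choice made after seeing the data, Cd24a and Epcam as well as Ly6a and Cd14 change places in luminal cells, and Cd24a and Kitl as well as Ly6a and Cd44 in basal cells. With this length the levels per kb of Prom1, Kit and Thy1 are lower by more than 1.5 times in both sorts, at 22.6, 20.4 and 0.542 CPM per kb in luminal and 0.293, 0.133 and 7.11 CPM per kb in basal cells.

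**Figure D4:**
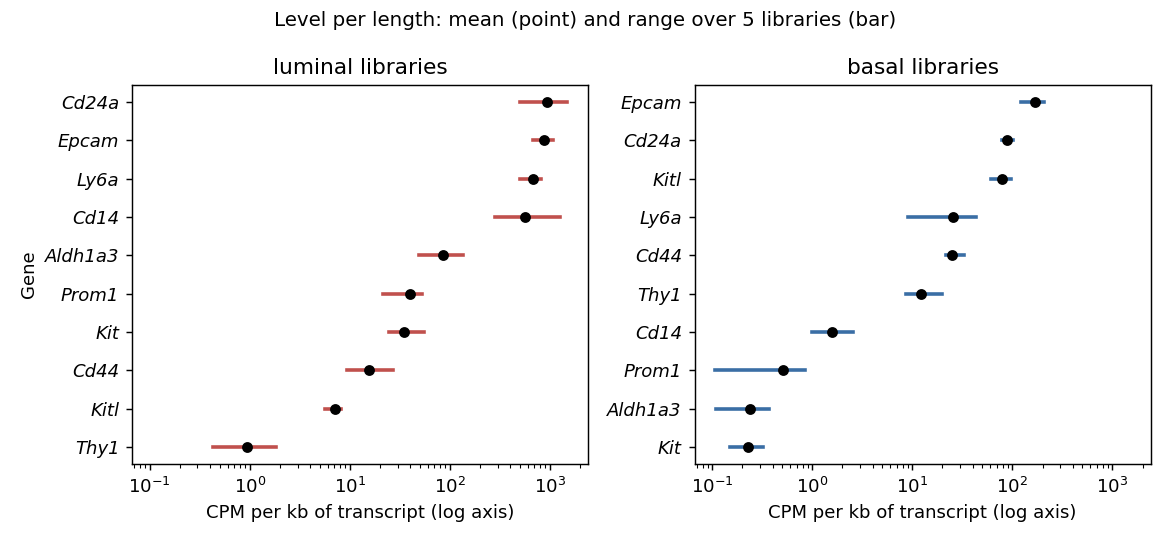
Level per kb of the longest transcript on a log axis, for luminal (left) and basal (right) libraries, with the mean of 5 libraries (point) and their range (bar). Cd24a, Epcam, Ly6a and Cd14 form the top of the luminal order, and Cd14, Prom1, Aldh1a3 and Kit lie below the other genes in basal cells.

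Other surface proteins used on mammary epithelium differed in both directions. Without the sort marker Itga6, luminal cells held more of 6 of the 17 tested, basal cells more of 8, and 3 (Cd9, Cd47 and Cd81) were not called, with a median log2 fold change of -0.12 (-0.36 with Itga6), beside 33.6% and 31.2% of all genes tested called in these directions. The largest difference in each direction was that of Cd55, which encodes a complement inhibitor (29.4 ± 7.52 against 1.10 ± 1.13 CPM, SD, n = 5; log2 fold change 4.70, edgeR adjusted p = 1.89e-06), and that of Cdh3, which encodes P-cadherin (4.199 ± 0.886 against 528 ± 66.2 CPM; log2 fold change -6.97, edgeR adjusted p = 2.75e-11). Basal library 4 held the most Cd55 of its group (2.81 CPM, the others 0.155 to 1.68 CPM), and without it the log2 fold change was 5.37. The first place of Cdh3 held with the main settings, where Ngfr had a log2 fold change of -6.77, but not under every alternative. Ngfr reached -7.47 under other settings and -9.05 on leaving out a library, where Cdh3 did not pass -7.05. Itgb3, or CD61, which has been used to mark luminal progenitors in some mice, was named after its values were seen. It lay at 3.99 ± 2.15 CPM in luminal and 164.5 ± 33.9 CPM in basal libraries (SD, n = 5; log2 fold change -5.36, edgeR adjusted p = 7e-09), the direction opposite to that of Kit, Cd14 and Aldh1a3.

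**Figure D5:**
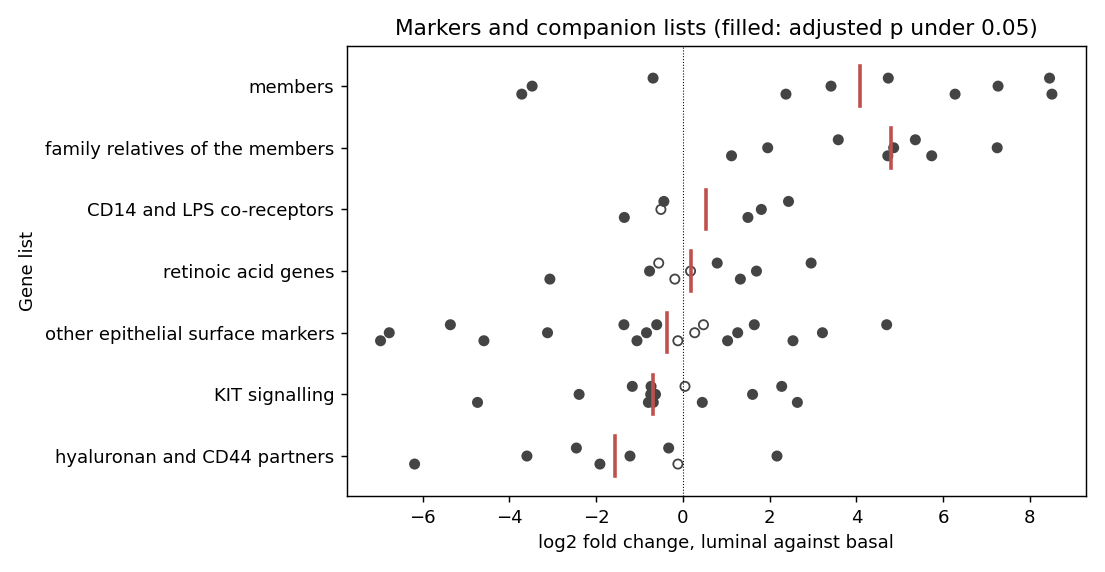
Log2 fold change of luminal against basal cells for each tested gene of the 10 markers ("members") and of the lists described in the text, with filled points for an edgeR adjusted p under 0.05, open points for the others, and a red line at the median. The median is 4.08 for the 10 markers and 4.79 for their relatives, and lies between -1.57 and 0.53 for the other lists plotted. The progenitor and mature luminal markers, not plotted, had medians of 8.05 and 5.98.

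For each of the 10 genes, the tested gene with the most similar pattern over the 10 libraries was found by Pearson's r of log2(CPM + 1), as a description. These libraries form 2 groups, so any gene with a large difference gives a high r. The nearest genes were Pak4 for Epcam (r = 0.997), Ncald for Cd24a (0.997), Spns3 for Kit (0.999), Fzd3 for Kitl (0.998), Clic6 for Cd14 (0.997), Muc20 for Prom1 (0.994), Ptdss2 for Ly6a (0.996), Scara5 for Aldh1a3 (0.998), Hps3 for Cd44 (0.9605) and Clint1 for Thy1 (0.989). Between 848 and 1561 genes had an r above 0.95 with each of 9 of the markers, whereas only 2 had one with Cd44.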

How the data were processed

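The deposited values are raw counts of reads for each gene, not normalized by the authors, in 5 luminal and 5 basal libraries. Per the submitters' processing notes, cutadapt 4.2 and Bowtie2 2.3.5.1 were used (builds mm10 and hg19 are listed). The study describes poly(A)-selected, single-end libraries aligned to mm10 for RNA-seq with fewer replicates than here, so that these steps apply was assumed. The counting tool, annotation, strand setting and treatment of reads with several matches are not given in the sources used here. Reads that span a splice junction are not aligned as such by Bowtie2, so genes with short exons can be undercounted.

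Of 24594 Entrez identifiers, 24570 were matched to a symbol and position in RefSeq (GRCm38.p6). Promoter sequences are from the same source (5 of the 10 genes matched), and transcript lengths and shared 51-base stretches from GENCODE M21. Genes were filtered with filterByExpr (minimum count 10, total 15; 9985 genes dropped), scaled by TMM and compared with edgeR 4.0.16 (R 4.3.3) quasi-likelihood tests with cell type as the only term. P-values were adjusted by Benjamini-Hochberg over 14609 genes, with calls at 0.05. The SE was taken as the size of the log2 difference over the root of the F statistic. Pair ratios used a pseudocount of 0.1 CPM. The scripts were tested on simulated data. A count of 3 corresponds to between 0.158 and 0.232 CPM and is the limit below which a library at 0 cannot be read, for counting error only. No 2 libraries agreed within sampling noise (chi-square per degree of freedom at least 14.4).

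The genes and lists were chosen with earlier results of these data known. Named genes were the 10 markers, the sort marker Itga6, the largest called difference in each direction in each list, the defining markers of other cell types and the nearest gene to each marker. Some genes of the lists are not reported here. Luminal and basal libraries with one replicate number begin their descriptions with one common number, taken here to be that of the animal. Their deviations from the group means correlated at a mean of 0.0442 (-0.134 to 0.252, 5 pairs), against -0.00718 for other pairs. The labels do not say that libraries of a group came from separate animals, so p-values measure the spread between these libraries. The alternatives were other scaling factors, other filters, DESeq2 1.42.0, limma voom 3.58.1, the pair as a block and leaving out each library, and, added after seeing the data, another transcript length and counts without the sort markers.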

Additional observations from a re-analysis of the deposited data

Results flagged for a closer look

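In groups of 5 libraries, the gap of the highest or lowest library to its neighbour was set against the range of the group, with 0.71 as the critical value of Dixon's test. For normally distributed values, chance exceeds it in about 1 in 20 groups. CPM was used without a log scale and some groups held few counts, so this rate need not hold here. Of 94 groups, 11 exceeded it, where 4.7 would at that rate, and none was a group of one of the 10 markers. Ly6d stood out in library 4 of both sorts, with 2006 CPM in luminal library 4 (999.9 to 1193 in the others) and 28.4 CPM in basal library 4 (2.05 to 5.80). Basal library 4 was also high for Cd52 (3.06 CPM against 0.2997 to 0.998), Cpa3 (0.5002 against 0.12 to 0.205) and Plin1 (1.06 against 0 to 0.205). Has2 was high in basal library 1 (44.0 CPM against 34.1 to 36.95) and Pdgfra in basal library 3 (19.4 against 9.94 to 11.5). Luminal library 5 was high for Mcpt4 (0.888 CPM against 0) and Hbb-bt (0.952 against 0 to 0.0625), and luminal library 1 for Plin1 (0.5003 against 0 to 0.0763). Some of these flags rest on few counts: 14 of Mcpt4, 15 of Hbb-bt and 8 of Cpa3 in the flagged library. For Plin1 it was 8 counts in luminal library 1 and 17 in basal library 4. The TMM factor of basal library 1 was low, at 0.892 against 0.9425 to 0.9604. What lay behind these values was not tested.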

How the results depend on the processing

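Of 178 values of the 10 markers under alternative settings, 173 kept their direction and their side of the threshold and 5 kept the direction but lost the call, all of Cd44 and all given above. The number of markers called, Epcam included, was 8 to 10 over other settings, 8 being where at least 10 counts in every library were required and Prom1 and Aldh1a3, low in basal cells, were not tested, and 9 to 10 on leaving out a library. Over all genes, 9462 were called (4904 higher in luminal, 4558 in basal), with 7884 to 10055 under other settings and 8931 to 9560 on leaving out a library. Library totals alone gave 5705 and 3705, and moved the median log2 fold change of all genes by 0.19, upper-quartile factors by 0.12. The pair of libraries as a replicate block gave 9279 calls (4740 higher in luminal, 4539 in basal) and changed no call among the 10 markers. Of 1105 values of 62 genes of the lists, 1063 were unchanged in direction and call, 21 lost a call, 11 gained one and 10 changed sign, all of them of 4 genes that were not called. Cd47 gave 0.004 with upper-quartile factors and 0.069 with library totals, Has3 0.008 and 0.065 with these, Aldh1a1 0.024 with library totals, and Socs6 -0.016 without a filter. Leaving out each library gave -0.011 to 0.107 for Socs6, -0.416 to 0.113 for Aldh1a1 and -0.194 to 0.004 for Has3, so that Socs6 without luminal library 3 or 4, Aldh1a1 without luminal library 4 and Has3 without luminal library 2 had the opposite sign. The counts of 3 lists moved by over 1.5 times: LPS-sensing genes higher in basal cells were 1 with library totals, hyaluronan genes higher in luminal cells 2 without a filter, and relatives higher in luminal cells 5 with at least 10 counts in every library, where 5 were tested. Depth limits Kit, Aldh1a3, Cd14 and Prom1 in basal cells, where single libraries held few counts.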
